A study of Mus musculus with 18 samples.

Results

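Liver mRNA of 10 purine synthesis genes was read in 18 male C57BL/6 mice on one-colour Agilent arrays, 1 array per mouse. They were taken by name: Ppat, Gart, Pfas, Paics, Adsl and Atic of the route that builds IMP through AICAR, Impdh1, Impdh2 and Gmps of the branch to GMP, and Hprt of salvage. All 14 probes that map to them were used, of 39429 distinct probes, and the 10 genes stand among 21153 genes that the probes name. Mice started on diets of 10% fat (LFD) or 60% fat (HFD) when 6 weeks old. After 10 weeks on diet, part of each diet group was given the antifolate methotrexate intraperitoneally at 50 mg/kg for 5 rounds (LFD MTX50 and HFD MTX50), and livers were taken 1 week after the last round, so the measurements describe livers after treatment and not during a dose. Without treatment there were 4 LFD and 4 HFD mice, and with treatment 5 LFD MTX50 and 5 HFD MTX50 mice. HFD vs LFD is called the diet comparison below, HFD MTX50 vs HFD the comparison in obese livers, and LFD MTX50 vs LFD that in lean livers. Each value is the log2 processed signal of a probe minus the 75th percentile of its array, here called the log2 level, so that 0 is the 75th percentile and negative values lie under it. A gene with several probes was read on its brightest probe, and levels of different probes are not compared with each other.

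Purines are built stepwise on phosphoribosyl pyrophosphate (PRPP). Amidophosphoribosyltransferase (Ppat) takes the committed step. The trifunctional enzyme encoded by Gart and the transformylase activity of Atic both use 10-formyltetrahydrofolate, which ties the pathway to folate. Adsl releases AICAR from its succinyl precursor, and Atic then consumes AICAR to form IMP. AICAR in its phosphorylated form is a known activator of the kinase AMPK, and polyglutamated methotrexate is known to inhibit the transformylase as well as dihydrofolate reductase. IMP dehydrogenase (Impdh1 and Impdh2) followed by GMP synthetase (Gmps) makes GMP. Hprt returns hypoxanthine and guanine to IMP and GMP, and the liver is a main site of purine synthesis for other tissues.

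The members lie apart in the genome except for one pair. On GRCm38.p6, Ppat (chromosome 5, 76913249 to 76951578, minus strand) and Paics (chromosome 5, 76951302 to 76967509, plus strand) are arranged head to head, and their annotated 5′ ends overlap by 277 bases. RefSeq promoter windows for that build were found for 9 members, all but Pfas, 10 windows in all because Impdh1 has windows at a pair of annotated starts. The 250 bases before each start are used here. The annotated Gmps locus begins at 63963633, upstream of its window, so the Gmps window lies inside the locus. The sequence before that outer end is not shown. The windows of Impdh1, Impdh2, Gmps and Hprt, which changed in a comparison below, are printed so that the sequence upstream of the moving genes can be read directly. Capitals mark matches, on either strand, to GGGCGG (the GC box), CCAAT (the CCAAT box), CACGTG (the E-box) or TATAAA (the TATA box), none of which overlaps another kind in these windows.
Impdh2, chr9:108560186-108560435, plus strand: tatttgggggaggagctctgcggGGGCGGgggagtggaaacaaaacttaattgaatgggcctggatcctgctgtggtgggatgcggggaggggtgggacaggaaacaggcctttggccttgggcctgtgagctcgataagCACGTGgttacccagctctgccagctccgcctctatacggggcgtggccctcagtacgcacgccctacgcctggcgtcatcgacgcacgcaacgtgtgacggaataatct
Gmps, chr3:63975893-63976142, plus strand: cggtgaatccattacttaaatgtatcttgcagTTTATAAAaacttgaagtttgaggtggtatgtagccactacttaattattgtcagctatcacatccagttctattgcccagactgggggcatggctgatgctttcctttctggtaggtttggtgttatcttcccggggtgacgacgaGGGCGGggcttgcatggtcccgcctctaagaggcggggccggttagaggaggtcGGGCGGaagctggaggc
Impdh1, upstream start, chr6:29216365-29216614, minus strand: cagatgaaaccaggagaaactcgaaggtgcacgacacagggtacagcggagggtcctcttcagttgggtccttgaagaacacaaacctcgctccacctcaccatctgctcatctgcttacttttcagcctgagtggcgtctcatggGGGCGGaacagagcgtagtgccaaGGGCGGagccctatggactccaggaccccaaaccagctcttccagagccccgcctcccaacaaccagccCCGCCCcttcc
Impdh1, downstream start, chr6:29212298-29212547, minus strand: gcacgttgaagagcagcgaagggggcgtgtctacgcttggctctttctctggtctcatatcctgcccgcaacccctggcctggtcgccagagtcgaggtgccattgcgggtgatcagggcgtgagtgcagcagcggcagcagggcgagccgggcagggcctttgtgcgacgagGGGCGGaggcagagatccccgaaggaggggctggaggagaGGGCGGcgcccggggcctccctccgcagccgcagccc
Hprt, chrX:52987828-52988077, plus strand: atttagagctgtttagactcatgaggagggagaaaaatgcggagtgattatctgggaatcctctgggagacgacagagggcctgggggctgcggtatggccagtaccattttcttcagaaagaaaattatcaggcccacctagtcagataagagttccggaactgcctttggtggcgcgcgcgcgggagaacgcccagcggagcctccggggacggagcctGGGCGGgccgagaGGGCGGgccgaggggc

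A GC box match was present in 10 of 10 member windows, and in 32.7% of all 32851 windows of the same length. An E-box match stood in 3 member windows (Impdh2, Atic and Paics) against 6.02% of all windows; the CCAAT box stood in 3 (Atic, Paics and Gart) against 33.8%. TATAAA was found in 1 member window, that of Gmps, where both strands match in overlapping letters, against 12.4% of all windows. TGATGCAA, a site type of the stress factor ATF4, was in 0 of the 10 and in 0.791% of all. GC content of the 250 bases ran from 51.2% (Gmps) to 69.6% (downstream start of Impdh1). These are letter matches and not measured binding. The GC box was shared by the windows of genes that changed and of genes that did not.

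All 14 probes lay well above background on all 18 arrays, and hepatocyte markers (10 of 10 measured) summed to 1052 to 1675 times the array's 75th percentile. These sums were 1232 to 1471 in LFD, 1461 to 1675 in LFD MTX50, 1113 to 1260 in HFD and 1052 to 1652 in HFD MTX50. By limma, 3 of the 10 hepatocyte markers were lower by diet, and 2 were higher with MTX50 in obese and 2 in lean livers. Over all genes tested, 10.4% were called lower by diet, and 4.83% and 17.6% higher with MTX50 in obese and lean livers. Arrays were placed on 6 slides. All LFD arrays lay on 1 slide that held no other group, and the LFD MTX50 arrays lay on 2 further slides, so slide and group cannot be told apart wherever LFD groups are compared. A slide was shared by mice 3 and 4 of HFD with mice 1 and 2 of HFD MTX50. The sum of erythroid markers set some HFD MTX50 livers apart. Over the 6 erythroid markers measured, of 8 listed, it was 158.8 in HFD MTX50 mouse 5, 70.1 in mouse 4 and 1.66 to 3.20 in mice 1 to 3. It was 16.4 to 41.9 in HFD, 30.2 to 47.5 in LFD and 1.32 to 1.89 in LFD MTX50. The brightest, Hbb-bt, Hba-a1 and Alas2 (mean log2 levels 4.15, 3.97 and 1.62 in LFD), weigh most in this sum. These 3 were lower in LFD MTX50 vs LFD by limma, whereas Klf1 was called higher there (0.695). Slc4a1 was not called there (0.29). The sum does not speak for the whole list. Myeloid markers (9 of 10 measured, Ly6g unmatched) also summed highest in HFD MTX50 mouse 5, at 192.9, against 79.7 to 132.5 in the other HFD MTX50 mice and 77.6 to 96.0 in HFD. In LFD they summed to 105.9 to 117.2, above every HFD liver and above every LFD MTX50 liver (72.5 to 87.6). The brightest markers, Elane and Itgam (mean log2 levels 6.25 and 5.04 in LFD), weigh most in these sums. Both were lower in LFD MTX50 vs LFD by limma (-0.56 and -0.54). Ngp was called higher there, but it was not above background in LFD and passed the background filter only through treated livers. The median difference over the 9 markers was 1.09 there and 0.25 by diet, so the sums do not speak for the whole list. Proliferation markers (11 of 12 measured, Bub1 not kept on background) ranged from 5.73 to 8.96 over all groups. Macrophage markers (8 of 8) summed to 57.0 to 82.3 in HFD MTX50, 35.3 to 60.1 in HFD, 47.2 to 65.8 in LFD and 36.1 to 44.9 in LFD MTX50. The brightest, Cd68 and Csf1r (mean log2 levels 4.51 and 4.29 in LFD), weigh most in this sum. In LFD MTX50 vs LFD these 2 were lower by limma (-0.94 and -0.54), while the median difference over the 8 markers was 0.29. The lower sum there does not speak for the whole list. Lymphocyte markers (10 of 10) ranged from 81.2 to 151.1 and stellate and cholangiocyte markers (9 of 9) from 1.06 to 5.00 over all groups, the 4 groups overlapping in both. In bulk liver, fewer cells of a type and less RNA per cell cannot be told apart. The part of these markers in the results below was not tested beyond the values given without single mice.

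**Figure D1:**
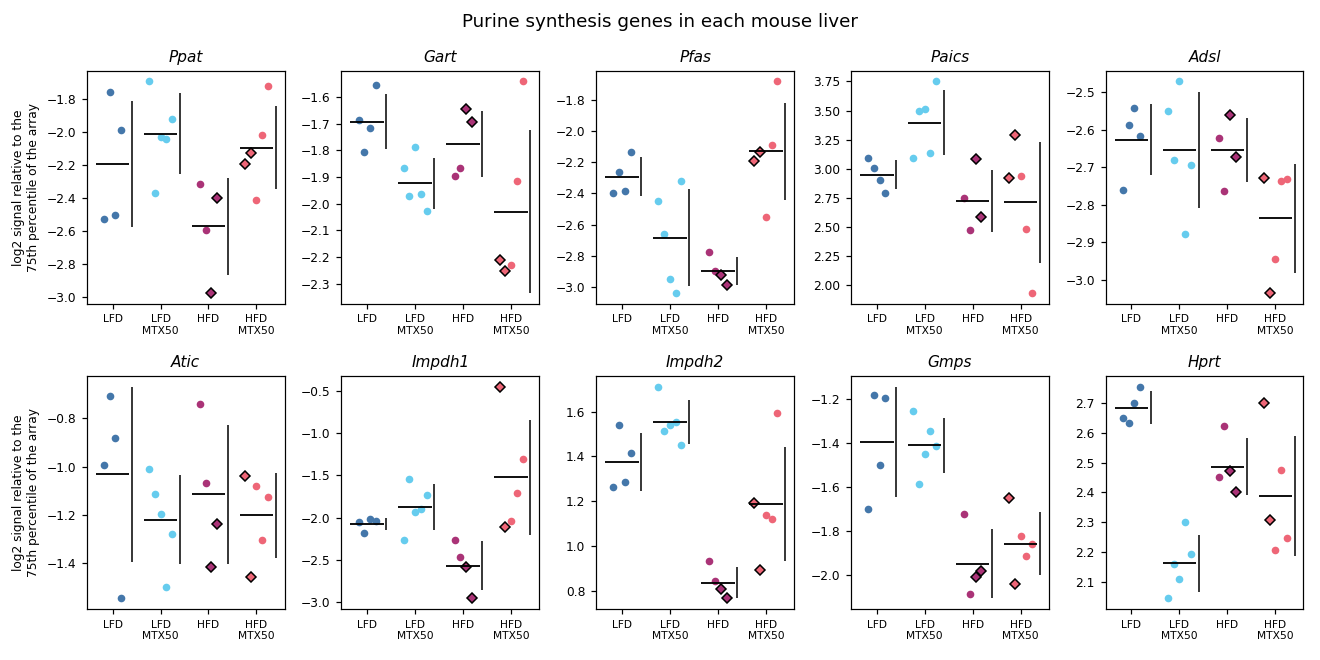
Log2 level (log2 processed signal minus the array's 75th percentile, vertical axis, its own range in each panel) of the brightest probe of each gene in every mouse, by group. Points are mice, diamonds with a black edge are the 4 arrays on the slide that HFD and HFD MTX50 share, horizontal lines are group means and vertical lines ± SD (n = 4 or 5). Pfas in HFD, at -2.99 to -2.77, lies under both LFD and HFD MTX50, and Hprt in LFD MTX50, at 2.04 to 2.30, lies under LFD.

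The first comparison asked how the pathway differed between obese and lean livers. In HFD, 3 of the 10 genes were lower than in LFD by limma (adjusted p under 0.05 over all probes) and 0 were higher, with the same 3 counted at an unadjusted p under 0.05; over all 19597 genes tested, 10.4% were called lower and 18% higher. Those that fell, each on its brightest probe, were Pfas, Impdh2 and Gmps. The first is a step of the route to AICAR and the others are enzymes that carry IMP to GMP. All 10 differences were below 0, with a median of -0.30 against a median of 0.08 over all genes. Counts at an unadjusted p under 0.05, here and below, are given without the share of all genes at that threshold. Groups that do not overlap are likewise named without the share of all genes that separate in this way. Neither can be read against a background.

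Pfas, which makes the amidine intermediate of the route, read -2.40, -2.26, -2.39 and -2.13 in the LFD livers and -2.77, -2.90, -2.92 and -2.99 in the HFD livers. The groups did not overlap. The difference was -0.60 ± 0.17 (SE, log2), a 1.52-fold lower signal in HFD (adjusted p = 0.018 by limma; exact permutation p = 0.029, two-sided, the smallest that 4 against 4 allows). Impdh2, the inducible and main form of IMP dehydrogenase in dividing cells, read 1.26, 1.54, 1.29 and 1.42 in LFD and 0.93, 0.84, 0.81 and 0.77 in HFD. Every HFD liver was under every LFD liver, and the difference was -0.54 ± 0.12 (adjusted p = 0.0073 by limma). The second Impdh2 probe gave -0.52 ± 0.11 (adjusted p = 0.0047).

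Gmps, which aminates XMP to GMP, read -1.70, -1.18, -1.50 and -1.19 in LFD and -1.72, -2.08, -2.01 and -1.98 in HFD. The groups touched without overlapping, HFD mouse 1 lying next to LFD mouse 1. The difference was -0.55 ± 0.13 (adjusted p = 0.0078 by limma), and 1 of the other Gmps probes gave -0.50 ± 0.12 (adjusted p = 0.0098). The remaining probe went the other way, every HFD liver lying above every LFD liver. Its difference was 0.27 ± 0.14 (adjusted p = 0.17 by limma, exact permutation p = 0.029, two-sided). The fall of Gmps by diet is therefore not shared by all of its probes. Impdh1 and Hprt were also lower in every HFD liver than in any LFD liver, yet neither passed the adjusted threshold. Impdh1, the form of IMP dehydrogenase kept at low levels in most tissues, differed by -0.49 ± 0.28 (adjusted p = 0.18), and Hprt by -0.20 ± 0.11 (adjusted p = 0.16).

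The diet differences rest on arrays of separate slides. With slide as a random block, 0 of the 10 genes passed (Impdh2 adjusted p = 0.074, Gmps 0.075, Pfas 0.12), while the differences stayed at -0.51, -0.56 and -0.60. Without LFD mouse 4, HFD mouse 3 or HFD mouse 4, Pfas lost its call (adjusted p = 0.052, 0.054 and 0.056).

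**Figure D2:**
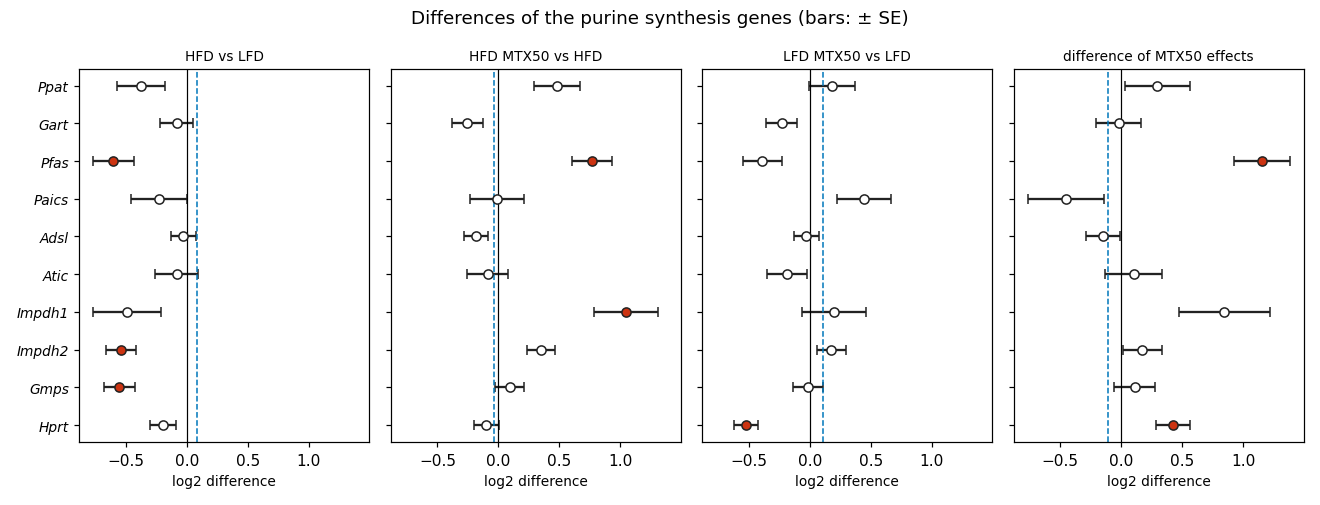
Log2 difference (horizontal axis) of each gene in the diet comparison, in obese livers with and without MTX50, in lean livers likewise, and in the difference of both MTX50 effects (HFD minus LFD). Bars are ± SE from the model of 18 arrays, red points pass an adjusted p of 0.05, and the dashed line is the median of all genes tested. In the first panel all 10 points lie left of 0, and in the second Pfas at 0.77 and Impdh1 at 1.05 are the points that pass.

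The next comparison asked how MTX50 moved the genes in obese livers. Here Pfas and Impdh1 rose (2 of 10 higher, 0 lower), where 4.83% of all genes were called higher and 6.13% lower. HFD is the reference of this comparison and the tested group of the one before. The differences of any gene in both, Pfas included, are therefore not independent. The median over the 10 genes was 0.04, against -0.04 over all genes, with 5 differences above 0 and 5 below. At an unadjusted p under 0.05, 4 genes differed, Impdh2 and Ppat being the added ones.

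Pfas read -2.19, -2.13, -2.55, -2.09 and -1.68 in HFD MTX50 mice 1 to 5, and the HFD values given above all lay lower. It rose by 0.77 ± 0.16, or 1.70-fold (adjusted p = 0.013 by limma; exact permutation p = 0.016, two-sided). The highest value came from mouse 5, the liver with the highest erythroid and myeloid sums, and without that mouse the rise was 0.65 ± 0.15 (adjusted p = 0.025). On the shared slide, the 2 MTX50 livers read -2.19 and -2.13 and the 2 HFD livers -2.92 and -2.99, a difference of 0.79 (adjusted p = 0.057 with the variance from all arrays).

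Impdh1 read -2.26, -2.47, -2.59 and -2.96 in HFD and -0.45, -2.12, -2.04, -1.71 and -1.30 in HFD MTX50. All 5 treated livers were above all 4 untreated ones, but they spread over a wide range, mouse 1 standing highest. The rise was 1.05 ± 0.26, or 2.06-fold (adjusted p = 0.023 by limma; exact permutation p = 0.024, two-sided). Without mouse 1 it was 0.78 ± 0.19 (adjusted p = 0.020), and without mouse 5 it was 0.99 ± 0.28 and no longer called (adjusted p = 0.051). On the shared slide, which holds mouse 1, the difference was 1.49 ± 0.40 (adjusted p = 0.038 with the variance from all arrays). Without HFD mouse 3 or HFD mouse 4, neither Pfas nor Impdh1 was called; Pfas then read 0.76 and 0.74 (adjusted p = 0.0503 and 0.055) and Impdh1 1.04 and 0.92 (adjusted p = 0.078 and 0.090).

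Impdh2 lay close to the threshold. It read 1.19, 0.89, 1.14, 1.12 and 1.59 in HFD MTX50, and 4 of these 5 livers were above all HFD livers. The brightest probe gave 0.35 ± 0.12 (adjusted p = 0.058), and the second probe, on which the groups did not overlap, gave 0.39 ± 0.10 (adjusted p = 0.026). Ppat gave 0.48 ± 0.19 (adjusted p = 0.099), with 4 of 5 treated livers above all HFD livers. Gmps differed by 0.09 ± 0.12 (adjusted p = 0.63), and Hprt by -0.10 ± 0.10 (adjusted p = 0.52).

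In lean livers with MTX50, Hprt fell, and it was the 1 gene of 10 called lower in LFD MTX50 against LFD (0 higher), where 10.5% of all genes were called lower and 17.6% higher. At an unadjusted p under 0.05, 2 genes differed, Pfas being the added one. LFD is also the reference of the diet comparison. Hprt read 2.65, 2.63, 2.70 and 2.76 in LFD and 2.04, 2.16, 2.11, 2.30 and 2.19 in LFD MTX50. The groups did not overlap, and the fall was -0.52 ± 0.10, or 1.44-fold (adjusted p = 0.0032 by limma; exact permutation p = 0.0079, two-sided, the smallest that 4 against 5 allows). Hprt is widely used as a reference gene for PCR. With slide as a random block the value was -0.52 (adjusted p = 0.063), and no LFD and LFD MTX50 arrays shared a slide.

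Pfas pointed down in lean livers, at -2.45, -2.66, -2.95, -3.04 and -2.32 in LFD MTX50, with 4 of 5 below all LFD livers. The difference of -0.39 ± 0.16 did not pass (adjusted p = 0.078). Impdh1 gave 0.20 ± 0.26 (adjusted p = 0.58) and Impdh2 0.18 ± 0.12 (adjusted p = 0.25), so that the IMP dehydrogenase genes showed no called change with treatment on the lean diet. The median over the 10 genes was -0.02, against 0.10 over all genes.

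The treatment effects were then set against each other, HFD minus LFD. The effect on Pfas was higher in obese than in lean livers by 1.16 ± 0.23 (adjusted p = 0.0059 by limma), and that on Hprt by 0.42 ± 0.14 (adjusted p = 0.036); 2 of 10 genes were thus called higher and 0 lower, where 8.66% of all genes were called higher and 18.1% lower. For Pfas, the 5 treated obese livers lay above all untreated obese ones while 4 of 5 treated lean livers lay below all untreated lean ones. Pfas stayed called with slide as a random block (1.11 ± 0.29, adjusted p = 0.040), whereas Hprt did not (0.47 ± 0.18, adjusted p = 0.098). The random block cannot take out an offset between slides here, because LFD and LFD MTX50 arrays shared no slide. In the lean part of these differences, slide and treatment cannot be told apart. Hprt also lost the call in 10 of the 18 fits that left out 1 mouse. For Impdh1 the difference of 0.85 ± 0.37 did not pass (adjusted p = 0.094).

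The genes that make and consume AICAR gave small differences. Adsl read -2.76 to -2.54 in LFD, -2.88 to -2.47 in LFD MTX50, -2.76 to -2.56 in HFD and -3.04 to -2.73 in HFD MTX50, and the groups overlapped throughout. Its difference with MTX50 was -0.18 in HFD (95% interval -0.39 to 0.03, unadjusted) and -0.03 in LFD (-0.24 to 0.18). Atic read -1.55 to -0.71 in LFD, -1.50 to -1.01 in LFD MTX50, -1.41 to -0.74 in HFD and -1.46 to -1.04 in HFD MTX50. The wide spread within LFD covered all other groups' means. Its difference with MTX50 was -0.09 in HFD (-0.44 to 0.27) and -0.19 in LFD (-0.54 to 0.16).

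Gart, whose transformylase step also uses folate, differed with MTX50 by -0.25 ± 0.13 in obese livers (adjusted p = 0.19) and by -0.23 ± 0.13 in lean livers (adjusted p = 0.18). In HFD MTX50, 4 of 5 livers read -2.25 to -1.92, below all HFD livers, and mouse 5 read -1.54, above all of them. Without mouse 5 the difference was -0.38 ± 0.10 and called (adjusted p = 0.041). Paics, which carries a carboxylase and the SAICAR synthetase, read 2.80 to 3.09 in LFD, 3.09 to 3.75 in LFD MTX50, 2.47 to 3.08 in HFD and 1.93 to 3.29 in HFD MTX50. Mouse 5 was again at the edge, this time as the lowest HFD MTX50 liver. The difference in lean livers was 0.45 ± 0.22 (adjusted p = 0.13), and in obese livers -0.01 ± 0.22 (adjusted p = 0.98). The differences of Ppat and Paics, whose 5′ ends overlap, were thus 0.48 and -0.01 in obese livers and 0.18 and 0.45 in lean livers, none of them called.

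**Figure D3:**
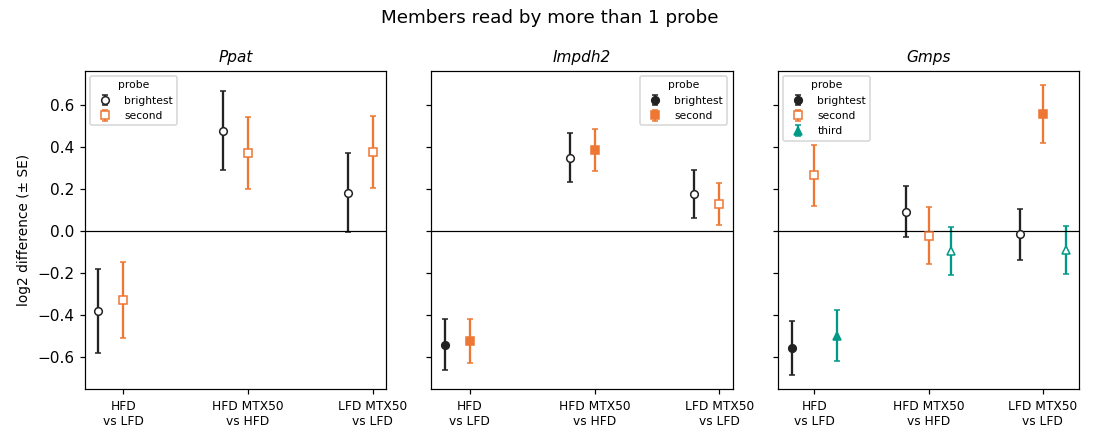
Log2 difference ± SE (vertical axis) for each probe of the genes read by more than 1 probe, by diet and by MTX50 in obese and in lean livers. Probes are ordered by mean signal and filled symbols pass an adjusted p of 0.05. The Ppat and Impdh2 probes run together, and the second Gmps probe stands apart at 0.56 in LFD MTX50 vs LFD, where the others are at -0.02 and -0.09.

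Where a gene had several probes, these ran the same way for Ppat and Impdh2 but not for Gmps. The second Ppat probe gave -0.33 by diet, 0.37 by MTX50 in obese livers and 0.38 in lean livers, next to -0.38, 0.48 and 0.18 for the brightest, and 0 of the 6 values was called. The second Gmps probe read -4.97 to -4.58 in LFD and -4.53 to -4.05 in LFD MTX50, groups that did not overlap, and rose by 0.56 ± 0.14 (adjusted p = 0.0093). Its difference of treatment effects was -0.58 ± 0.19 (adjusted p = 0.035). The transcripts that each Gmps probe reads were not analysed here.

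Within groups, the genes varied with little in common. Over the 45 pairs of members, the correlation of deviations from the group means across 18 arrays ran from -0.75 (Paics and Impdh2) to 0.69 (Impdh1 and Hprt), with a median of 0.17; 27 pairs were above 0. The points share the array and its scaling, so these values are a description. Among all other genes kept, those whose level over the 18 arrays was most like Pfas were Tmem62 (r = 0.91), Ranbp1 (0.88) and Nufip2 (0.88). Nin (0.93), Arhgef2 (0.90) and Map3k8 (0.89) were nearest to Impdh1, and Wdr77 (0.91), Psme3ip1 (0.89) and Araf (0.88) to Gmps. Each is the top of a search over 19596 genes.

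The genes around the pathway were read from lists of its neighbouring steps. Over all genes tested, 18% were called higher and 10.4% lower by diet, and 4.83% and 6.13% with MTX50 in obese livers. In lean livers 17.6% were called higher and 10.5% lower, and in the difference of treatment effects 8.66% and 18.1%. The called counts of the lists below stand beside these shares, and no list was tested against them. The diet comparison shares the HFD arrays with that in obese livers and the LFD arrays with that in lean livers. Moves of a gene in comparisons that share arrays are not independent. In the supply of PRPP (8 genes), Prps1, a PRPP synthetase, was -0.38 ± 0.10 in HFD vs LFD (adjusted p = 0.014) and 0.44 ± 0.10 in HFD MTX50 vs HFD (adjusted p = 0.015). In lean livers with MTX50 it differed by 0.15 ± 0.10 (adjusted p = 0.25), where Pfas stood at -0.39. The other 7 genes were not called in these comparisons, and Prpsap2, a PRPP synthetase-associated protein, fell in LFD MTX50 vs LFD (-0.42 ± 0.14, adjusted p = 0.037). The list medians were -0.18 by diet, 0.16 by MTX50 in obese livers and -0.03 in lean livers.

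Of the 14 genes that supply one-carbon units, 1 was higher and 2 were lower in HFD, 2 were higher and 1 lower with MTX50 in obese livers, and 1 was higher in lean livers. Mthfd1l, the mitochondrial 10-formyltetrahydrofolate synthetase, was 1.24 ± 0.27 higher in HFD and 0.99 ± 0.26 higher in LFD MTX50, both against LFD. Mthfd2, its partner dehydrogenase and cyclohydrolase, rose by 1.23 ± 0.36 in HFD MTX50 vs HFD (adjusted p = 0.040). The treatment effects on these genes differed between diets in opposite directions, at -1.22 ± 0.36 for Mthfd1l and 1.66 ± 0.51 for Mthfd2 (adjusted p = 0.023 and 0.027). Cytosolic Mthfd1 was lower in HFD (-0.52 ± 0.17), Mthfs was lower in HFD (-0.26 ± 0.09) and higher in HFD MTX50 vs HFD (0.28 ± 0.08), and the serine hydroxymethyltransferase Shmt1 fell in HFD MTX50 vs HFD (-0.54 ± 0.13, adjusted p = 0.021). The list medians were -0.10, -0.08 and 0.01.

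Salvage and interconversion (9 genes) held 1 gene higher in HFD, 2 higher and 1 lower with MTX50 in obese livers, and 1 higher in lean livers. Gmpr, GMP reductase, which returns GMP to IMP and so runs against Impdh and Gmps, was 0.64 ± 0.13 higher in HFD (adjusted p = 0.0045) and -0.72 ± 0.12 in HFD MTX50 vs HFD (adjusted p = 0.0066). Its treatment effect differed between diets by -1.03 ± 0.17 (adjusted p = 0.0048), opposite in sign to the difference for Pfas. Adenosine deaminase (Ada) rose by 0.57 ± 0.17 in HFD MTX50 vs HFD. Pnp2, a purine nucleoside phosphorylase whose near-identical paralog Pnp a probe may not tell apart, rose by 0.46 ± 0.14 in obese and by 0.59 ± 0.14 in lean livers with MTX50. The rise in obese livers was called in 3 of 18 fits that left out 1 mouse (adjusted p = 0.048 with all mice), and that in lean livers in 18 of 18.

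The branch to AMP and its deaminases (5 genes) showed Adss, adenylosuccinate synthetase, lower in LFD MTX50 vs LFD (-0.52 ± 0.11, adjusted p = 0.0042), and the deaminase Ampd1 higher in HFD and in LFD MTX50, both against LFD (adjusted p = 0.025 and 0.013). Ampd1 was not well above background in any LFD liver, so it passed the background filter only through the other groups. These calls against LFD are therefore no support for a rise. It was well above background in 3 of 4 HFD and 2 of 5 LFD MTX50 livers. With LFD raised to a background limit, the mean signal was 1.11-fold and 1.18-fold higher. These values set the mean of the brighter group against, on each LFD array, the higher of the probe's own signal and the lowest signal of any probe well above background. They are not lower bounds, because the brighter groups also hold livers not well above background. In this list 0 of 5 were called in obese livers with MTX50 (1 at an unadjusted p under 0.05 by limma). Of the 9 nucleotide kinases, the mitochondrial adenylate kinases Ak4 (-0.68 ± 0.14) and Ak3 (-0.36 ± 0.11) were lower and Nme1 higher (0.46 ± 0.14) in HFD vs LFD. Ak1 (-1.05 ± 0.35), Nme4 (-0.995 ± 0.261) and Ak3 (-0.29 ± 0.11) fell in LFD MTX50 vs LFD, and 0 of 9 were called in obese livers with MTX50 (3 at an unadjusted p under 0.05). Ak1 is abundant in red cells, and the erythroid sum was 1.32 to 1.89 in those LFD MTX50 livers against 30.2 to 47.5 in LFD. In HFD MTX50 that sum was 1.66 to 3.20 in mice 1 to 3, 70.1 in mouse 4 and 158.8 in mouse 5. Ak1 over that group was 0.55 ± 0.35 against HFD (adjusted p = 0.30 by limma). A link between Ak1 and the erythroid sum, in which Hbb-bt, Hba-a1 and Alas2 weigh most, was not tested.

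In purine breakdown (12 genes), aldehyde oxidase Aox1 fell in HFD MTX50 vs HFD (-1.02 ± 0.28, adjusted p = 0.029). The nucleotidase Nt5c (0.56 ± 0.12) and Urad (0.82 ± 0.19), which acts after urate oxidase, rose in LFD MTX50 vs LFD, and 0 of 12 were called by diet (2 at an unadjusted p under 0.05). The AMPK list (7 subunits and the upstream kinase Stk11) held 0 of 8 genes called by diet or by MTX50 in obese or lean livers, with medians of -0.02, -0.06 and 0.09. At an unadjusted p under 0.05, limma counted 2, 3 and 0 of them. In the difference of treatment effects, the beta subunit Prkab1 was lower (-0.50 ± 0.16, adjusted p = 0.029).

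Pyrimidine synthesis served as a neighbouring pathway of 10 genes, with 2 higher and 1 lower in HFD vs LFD, 0 called with MTX50 in obese livers (4 at an unadjusted p under 0.05), and 1 higher and 2 lower in lean livers. Dctd, the dCMP deaminase, was higher in HFD (0.94 ± 0.14) and in LFD MTX50 (0.43 ± 0.14), and Ctps, CTP synthase, was higher in HFD (0.77 ± 0.21). Umps was lower in HFD (-0.38 ± 0.12) and in LFD MTX50 (-0.46 ± 0.12), and the kinase Cmpk1 was lower in LFD MTX50 (-0.38 ± 0.13), all against LFD. The treatment effect on Dctd differed by -0.85 ± 0.19, obese minus lean (adjusted p = 0.0083). That on Tyms, thymidylate synthase, differed by 0.67 ± 0.23 (adjusted p = 0.043) and was called in 6 of 18 fits that left out 1 mouse. With slide as a random block, 1 of 12 calls on these neighbouring genes by diet (Dctd) and 0 of 13 in lean livers with MTX50 still passed, whereas 6 of 8 did in obese livers (Prps1, Gmpr, Ada, Pnp2, Aox1 and Shmt1) and 2 of 10 in the difference of treatment effects (Gmpr and Dctd), the calls on Mthfd1l, Mthfd2, Prkab1 and Tyms being among those lost. Of the 8 calls in obese livers, 5 passed with slide as a fixed block, 5 with the deposited value table, 3 with the replicate block, and 0 on the shared slide alone, with the compared groups fitted alone or with normexp background. In all 18 fits that left out 1 mouse, 4 of 12 calls by diet, 1 of 8 in obese livers, 8 of 13 in lean livers and 3 of 10 in the difference were kept.

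**Figure D4:**
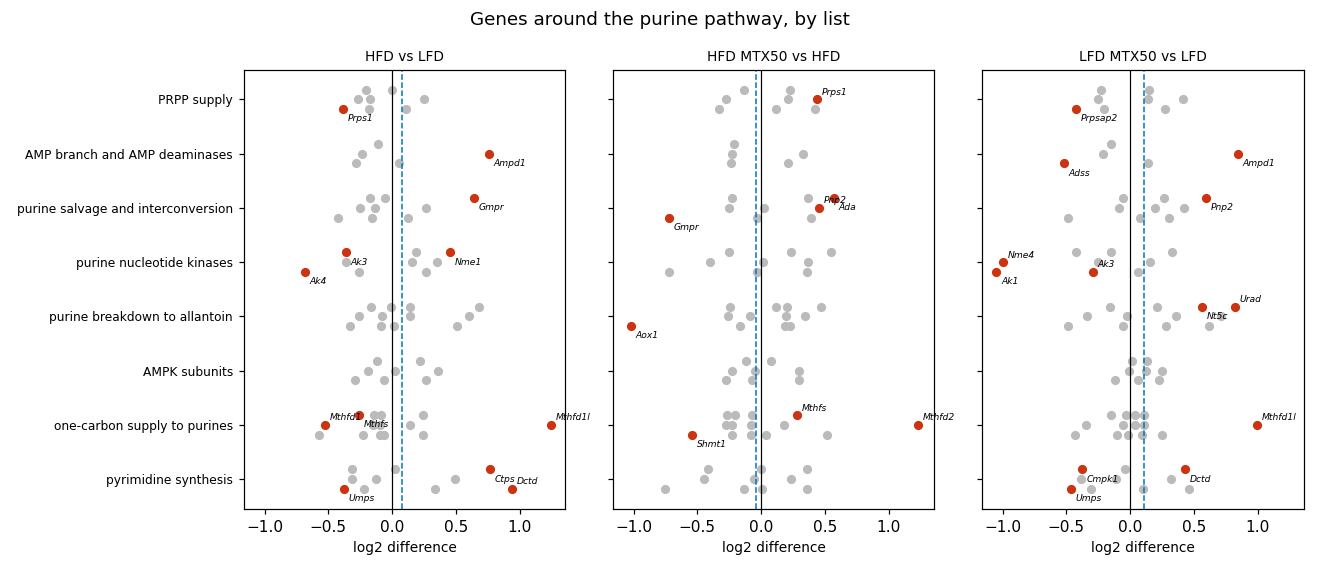
Log2 difference (horizontal axis) of every gene of the lists around the purine pathway by diet and by MTX50 in obese and in lean livers. Each point is a gene, red and named where the adjusted p is under 0.05 and grey otherwise, with vertical offsets only for legibility; the dashed line is the median of all genes tested. The AMPK list holds 0 red points, and Gmpr lies at 0.64 in the first panel and at -0.72 in the second.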

How the data were processed

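Total liver RNA of 18 mice was labelled with Cy3 and hybridised to whole-genome arrays. The authors extracted the spots with Agilent Feature Extraction 10.7.3.1; the deposited values are spot intensity on a linear scale, background-subtracted and detrended within each array. From these, the log2 processed signal minus each array's 75th percentile was computed, outlier spots (124 to 294 per array) were left out, and spots of a probe were averaged. Probes well above background on at least 4 arrays were kept (35735). RefSeq accessions were matched to symbols of GRCm38.p6 for 71.1% of the 39429 probes.

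limma 3.58.1 in R 4.3.3 fitted 1 model of the 4 groups, with Benjamini-Hochberg adjustment across every probe kept; the fit was tested on simulated data. A gene was called at an adjusted p under 0.05 on its brightest probe. Single values were compared by exact permutation tests. The members and lists were chosen with earlier results of these data known, the motifs too. Every member is named; from each list, called genes, at most 5 by size. The labels number the mice but name no shared origin. The number of arrays limits the precision. Alternatives covered background, scaling, filter, slide, probe choice, threshold and left-out mice. The deposited table of values, background-subtracted signal of the same scans, was an alternative.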

Additional observations from a re-analysis of the deposited data

Results flagged for a closer look

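The effects of MTX50 on Pfas and on Hprt differed between the diets by the test of the difference itself. Both differences include the lean groups, in which slide and treatment cannot be told apart. For Pfas, HFD minus LFD was 1.157 on the log2 scale, from a rise of 0.77 in obese livers and a difference of -0.39 in lean livers. For Hprt it was 0.4234, from -0.10 in obese and -0.52 in lean livers. No group of a member held a mouse far enough from the others to be marked (0 of 40 groups by Dixon's test).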

How the results depend on the processing

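The counts of called members depended on the processing as follows. With normexp background on the spot medians (chosen after seeing the data, offset 50), the counts were 0, 0, 0 and 0 (by diet, by MTX50 in obese livers, by MTX50 in lean livers, and for the difference of both MTX50 effects, the order used below), and the median of all probes shifted by 0.54, 0.52, 0.67 and -0.17. Requiring a 2-fold change with the adjusted p, or with an unadjusted p up to 0.015, gave 0, 1, 0 and 1. Slide as a random block gave 0 by diet, 0 in lean livers and 1 in the difference. In obese livers, slide as a fixed block gave 1, the arrays of the shared slide alone 0, and that slide with the variance from all arrays 1 (chosen after seeing the data). Fitting the compared groups alone gave 0 in obese and 2 in lean livers. In lean livers, quantile normalization, scaling to the median and the second brightest probe (chosen after seeing the data) each gave 2. In the difference, quantile normalization and the deposited value table each gave 1. By diet, Impdh1 gained a call with the compared groups fitted alone, and Hprt with scaling to the median. In obese livers, Impdh2 gained a call with only probes above background on all arrays and with intensity trend and robust variances. It also did with the mean of the probes and with the second brightest probe. On the second brightest probe, Gmps lost its call by diet and gained a call in the difference. Leaving out 1 mouse gave 2 to 3, 0 to 3, 1 to 2 and 1 to 3.

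Directions turned for Pfas in HFD vs LFD (0.0916) and Adsl (0.62) and Gmpr (0.88) in HFD MTX50 vs HFD with normexp, for Nme4 in LFD MTX50 vs LFD (0.32) with normexp, for Nme1 in the difference with the mean of the probes (0.0018), and for the second Gmps probe (0.27, 0.56 and -0.58). Otherwise, of 620 member values under other settings, 571 kept their side of the threshold, 34 lost and 10 gained a call, and 40 changed sign while called in neither; of 720 with 1 mouse left out, 697 kept it, 18 lost and 5 gained a call, and 21 changed sign uncalled. The 10 members were all below 0 in HFD vs LFD also with quantile and median scaling; the deposited table gave 8, normexp 4. The cause was not tested.

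Mouse numbers were not used as pairs in the main model. Deviations of mice with the same number correlated at -0.31 to 0.25. Mice with different numbers were not correlated for reference, so these values cannot decide whether the numbers mark pairs. With the number as a replicate block, the counts were 3, 1, 2 and 1. Signal over background limited none of the 14 probes.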
